A study of Mus musculus with 22 samples.

Results

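Serpins and kallikreins are the protease inhibitors and serine proteases whose mouse gene symbol begins with Serpin, or with Klk and a number. They were read in bladders of mice given BBN, N-butyl-N-(4-hydroxybutyl)nitrosamine, a bladder carcinogen, with or without a Trp53 mutation, and in untreated bladders. RefSeq lists 106 such symbols, and 89 of them had a probe on the array, 62 serpins and 27 kallikreins. Genes were kept where the scanner software called the probe well above background on 2 or more of 22 arrays, which left 66 of the 17404 genes tested in the series, 47 serpins and 19 kallikreins. Of the 23 not kept, 15 were above background on 0 arrays and 8 on 1, among them Serpina5 and Serpini2, and just inside the limit stood Serpinb9e, above background on 2 arrays. Serpinb13, an epithelial serpin, was above background on no array and has no level here.

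The 22 arrays held RNA of 22 samples taken at 8 months of age, 1 array each. The extraction protocol speaks of whole bladders for every sample, but the normal samples are titled and labelled as urothelium, so whether normal and BBN samples held the same tissue layers is not settled by the labels. Every difference from normal in stromal, muscle or leukocyte genes carries that doubt. The normal group (3 arrays) was wild type, with neither tamoxifen nor BBN. All 7 other groups drank BBN for 24 weeks, and their tissue is labelled as tumour. Krt5-Cre (2 arrays) carried Krt5-CreERT2 and the reporter LSL-RFP and was given tamoxifen, so recombination was directed to Krt5-expressing basal cells. Upk2-Cre (2 arrays) carried Upk2-CreERT2 and LSL-RFP with tamoxifen, which directs it to luminal cells that make uroplakin. Krt5-Cre R270H (3 arrays) and Krt5-Cre R172H (4 arrays) added Trp53R270H/+ or Trp53R172H/+ to the Krt5 driver and reporter, with tamoxifen. Upk2-Cre R270H (2 arrays) and Upk2-Cre R172H (3 arrays) added the same alleles to the Upk2 driver and reporter, with tamoxifen. The group called Trp53 het (3 arrays) was titled Trp53+/- with the genotype Trp53R270H/+, no Cre and no tamoxifen. No group had tamoxifen without BBN, and the normal group differed from every other in genotype as well as in treatment.

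Serpins are inhibitors that trap a protease by a large change of their own shape, and they act in plasma (clade A, antithrombin, C1 inhibitor), around cells (protease nexin) or inside cells (clade B). Kallikreins are secreted serine proteases encoded side by side. In stratified epithelium Klk5, Klk7 and their neighbours cut the desmosomal proteins that hold cornified cells together, and inhibitors such as Spink5 restrain them. Normal urothelium is not cornified.

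Levels below are log2 of the processed spot signal minus the 75th percentile of the same array, so a level of 0 is that percentile and a negative level is dimmer. Levels of different genes come from different probes and are not compared. The share of spots called well above background ran from 42.4% to 63.2% per array. The arrays were read on 2 scanners: 11 BBN arrays on the first, where the dimmest detected signal lay between -4.48 and -2.69, and 8 BBN arrays and the 3 normal arrays on the second, where it lay between -5.81 and -5.0. The normal arrays shared a slide with no other group, so normal and slide cannot be told apart. Xist against 4 Y-linked genes went against the labelled sex on 11 of 22 arrays, the 3 normal arrays among them. Upk2-Cre replicates 1 and 2 carry the same animal code, as do Trp53 het replicates 1 and 2, yet the Upk2-Cre pair differed in Xist minus Y signal (5.99 and -3.98). All other samples carry a code of their own. Given the Upk2-Cre pair, whether a code stands for 1 animal is not certain, so p-values measure the spread between these samples. Below, a bladder means the sample of 1 array. The luminal markers of urothelium (7 genes, uroplakins among them) were above background on every normal array, with a mean from 5.11 to 5.5, against from -2.63 to 1.51 in the BBN bladders. Trp53 signal was not used as a check of the labels, since these are point mutations.

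Promoters of 6 members that turn up in the results are printed here from RefSeq (GRCm38.p6), the 250 bases before a transcript start, 5′ to 3′ on the gene's strand. They are shown because 5 of them hold the AP-1 motif TGANTCA, while that of Klk13, the kallikrein of largest change, does not. Promoters of Klk11, Klk12, Serpinb3a and Serpina1e were searched too, held no AP-1 motif and are not printed. Serpina1e changed with BBN by 5.75 on the log2 scale and Serpina1a by 6.09, so genes without the motif rose as well. Capitals mark TGANTCA and the TATA box TATAAA, searched on both strands.
Serpinb2, chr1:107511173-107511422, plus strand: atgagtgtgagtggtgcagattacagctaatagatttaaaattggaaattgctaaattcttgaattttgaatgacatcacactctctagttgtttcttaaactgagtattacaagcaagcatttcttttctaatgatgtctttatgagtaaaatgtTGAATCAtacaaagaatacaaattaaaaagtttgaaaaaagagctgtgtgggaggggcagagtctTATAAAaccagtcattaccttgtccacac
Serpinb5, chr1:106860925-106861174, plus strand: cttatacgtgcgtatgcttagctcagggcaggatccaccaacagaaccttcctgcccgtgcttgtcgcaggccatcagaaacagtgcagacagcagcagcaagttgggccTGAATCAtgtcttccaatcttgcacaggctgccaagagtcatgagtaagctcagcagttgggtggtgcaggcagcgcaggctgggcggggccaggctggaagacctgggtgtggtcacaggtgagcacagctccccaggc
Serpinb11, chr1:107362064-107362313, plus strand: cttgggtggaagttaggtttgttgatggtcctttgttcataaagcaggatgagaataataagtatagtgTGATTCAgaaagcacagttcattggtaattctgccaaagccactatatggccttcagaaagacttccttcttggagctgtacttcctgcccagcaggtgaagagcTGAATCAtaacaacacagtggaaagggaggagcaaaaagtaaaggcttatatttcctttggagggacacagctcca
Serpina1a, chr12:103863620-103863869, minus strand: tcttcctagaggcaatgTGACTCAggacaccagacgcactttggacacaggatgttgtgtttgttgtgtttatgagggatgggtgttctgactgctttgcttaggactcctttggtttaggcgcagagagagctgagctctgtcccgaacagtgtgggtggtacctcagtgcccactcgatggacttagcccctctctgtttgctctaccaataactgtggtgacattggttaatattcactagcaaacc
Serpina1c, chr12:103904951-103905200, minus strand: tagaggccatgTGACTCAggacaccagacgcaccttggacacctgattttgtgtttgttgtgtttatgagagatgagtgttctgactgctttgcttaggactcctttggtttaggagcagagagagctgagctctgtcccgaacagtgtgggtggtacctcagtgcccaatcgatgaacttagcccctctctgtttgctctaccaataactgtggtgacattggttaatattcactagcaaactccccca
Klk13, chr7:43712317-43712566, plus strand: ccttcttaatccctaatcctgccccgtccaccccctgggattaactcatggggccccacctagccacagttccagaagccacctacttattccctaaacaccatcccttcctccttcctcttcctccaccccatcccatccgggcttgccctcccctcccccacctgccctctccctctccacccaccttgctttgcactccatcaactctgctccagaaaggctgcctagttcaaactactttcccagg
The AP-1 motif lay at -94 from the start in Serpinb2, at -140 in Serpinb5, at -181 and -76 in Serpinb11, at -233 in Serpina1a and at -239 in Serpina1c, and Serpinb2 also held TATAAA at -29. Serpina1a and Serpina1c are near copies with 93.0% identity over the 300-base window, so their motif is 1 observation rather than a pair.

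Bladders exposed to BBN differed from normal bladders in 32 of the 66 serpins and kallikreins, 28 higher and 4 lower (moderated test in limma over all tested genes, Benjamini-Hochberg adjusted p at or under 0.05). The background is high: 42.7% of all tested genes were called, 23.7% higher and 19% lower. The median log2 change of the 66 was 1.75, against 0.13 over all tested genes. Undetected signal itself differed between the sides: the 4173 genes above background on 0 of 22 arrays had a median log2 change of 1.12, and 26 of the 66 members were above background on no normal array. Among arrays of the second scanner alone such undetected genes had a median of -0.12 and the 66 members one of 1.45, with 38 called where 47.8% of all tested genes were. The 31 members above background on all 3 normal arrays had a median of 0.81 over all arrays. Of the 28 higher genes, 14 were above background on no normal array and could enter the list only through BBN bladders, so these counts are a description. Among those 31 members 10 were higher and 4 lower. For genes below background in every normal bladder the fitted change has no lower anchor, and the fold is given as a bound against the dimmest detected signal of the normal arrays. The BBN mean includes undetected arrays, and on the first scanner undetected signal can exceed that dimmest signal (-5.4, -5.13 and -5.64). Serpinb13, above background on no array, read -5.01 in Krt5-Cre replicate 2. The bound is therefore strict only for genes detected in all 19 BBN bladders. The plot of changes by role shows the epidermal kallikreins and epithelial clade B serpins at the top of the scale and the stromal serpins below 0.

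**Figure D1:**
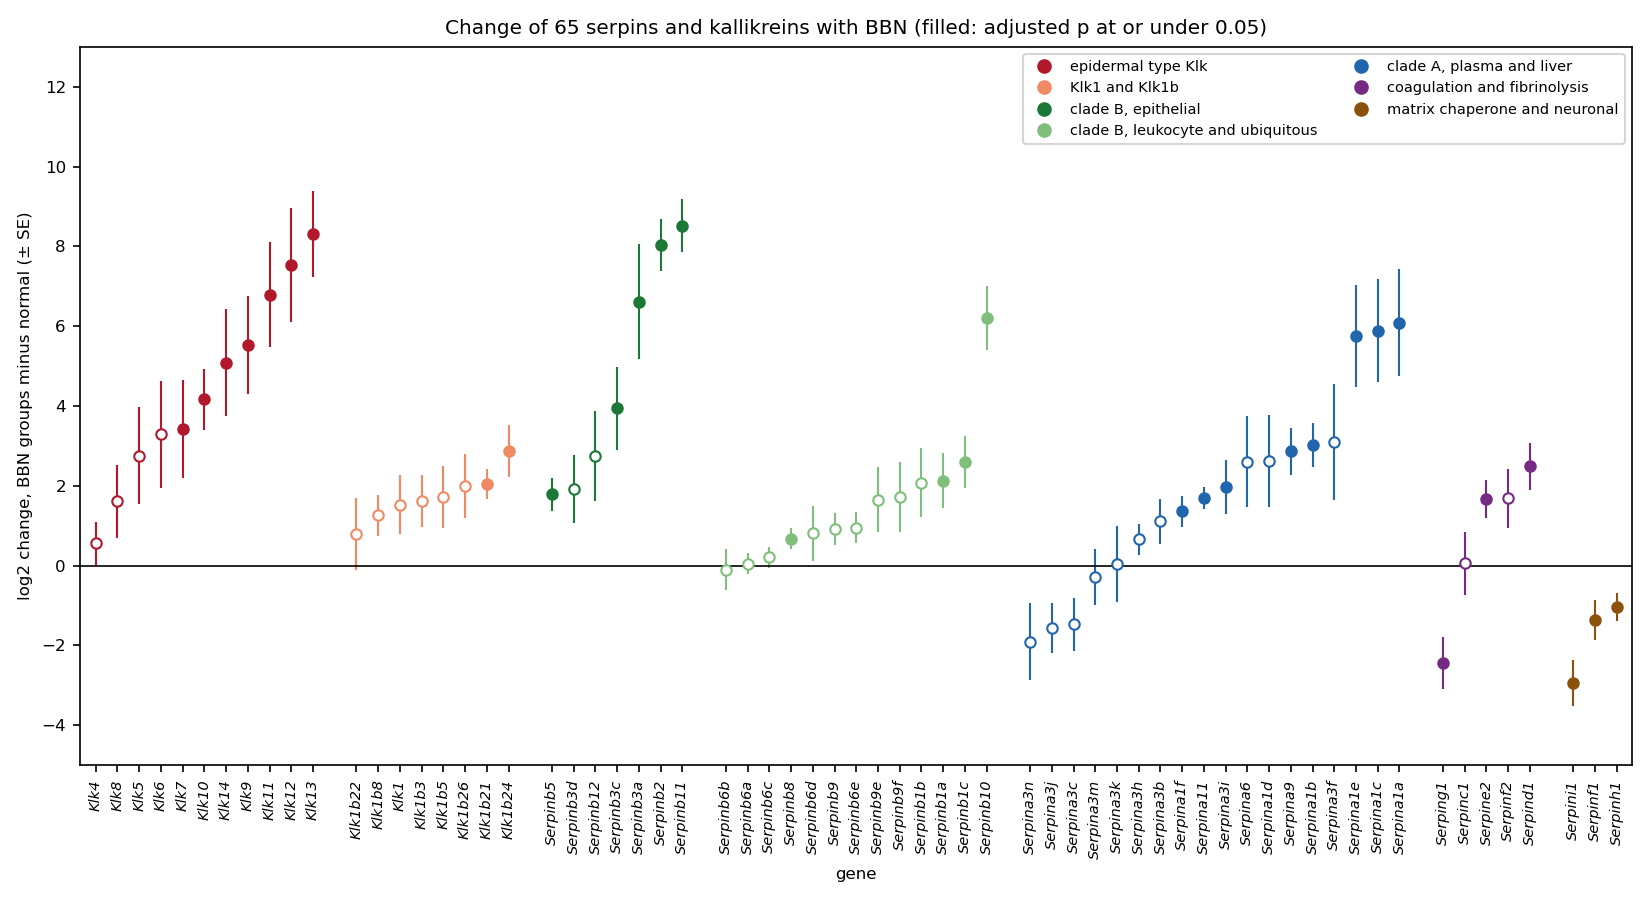
Log2 change (BBN groups minus normal, y axis) of 65 serpins and kallikreins on the x axis, ordered by role, with the standard error as bars; filled points have an adjusted p at or under 0.05. Serpinb11 stands highest at 8.52 and Serpini1 lowest at -2.95.

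The epidermal type kallikreins, Klk4 to Klk14, changed by 0.56 (Klk4) to 8.31 (Klk13) on the log2 scale. Of these, 6 were above background on no normal array, so a fall could not be read for them. Of 11 measured, 7 rose with BBN (Klk7, Klk9, Klk10, Klk11, Klk12, Klk13 and Klk14), 0 fell and 4 did not pass (Klk4, Klk5, Klk6 and Klk8), with a median log2 change of 4.16. Klk13, a trypsin-like kallikrein of squamous epithelium, read -7.39, -7.17 and -7.68 in the normal bladders, not well above background, and from -4.5 to 4.27 with a median of 1.08 in the 19 BBN bladders. Every BBN bladder lay above every normal bladder, and the BBN mean was at least 63.6-fold higher (log2 change 8.31 ± 1.07 (SE), adjusted p = 1.95e-05). Klk12 stood at -7.51, -6.84 and -7.76 in normal and from -7.37 to 4.04 with a median of 0.18 with BBN, at least 38.1-fold higher (log2 change 7.54 ± 1.43 (SE), adjusted p = 0.000618). A single BBN bladder, Krt5-Cre R172H replicate 3, read -7.37, within the normal range. Klk11 rose at least 40.6-fold (6.79 ± 1.32 (SE), adjusted p = 0.000725), from -5.76, -7.22 and -6.56 in normal bladders to a range from -7.27 to 3.27 with a median of 0.25. That same bladder was the lowest BBN sample for Klk11 too, at -7.27. The second probes gave smaller log2 changes, 4.0 for Klk12 and 4.89 for Klk11. Both fall short of the bounds above, which apply to the brightest probe alone.

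Klk10, which differs from its neighbours in having no established protease activity, could be followed on both sides. Its level was -4.32, -4.45 and -4.62 in the normal bladders, above background in all 3, and from -3.84 to 2.6 with a median of -0.16 with BBN, a log2 change of 4.16 ± 0.76 (SE), adjusted p = 0.000421. All 19 BBN bladders exceeded the 3 normal ones. Klk9 read -5.17, -5.56 and -4.5 in normal bladders and from -5.05 to 4.35 with a median of -0.04 with BBN (log2 change 5.54 ± 1.23 (SE), adjusted p = 0.00193), with the lowest BBN bladder inside the normal range. Klk14, a trypsin-like enzyme that activates other kallikreins in skin, was undetected in normal bladders (-7.46, -7.19 and -7.7). It was detected in 13 of 19 BBN bladders and ran from -7.82 to 1.84 with a median of -2.49. Its mean was at least 6.99-fold higher (log2 change 5.09 ± 1.35 (SE), adjusted p = 0.00653), a bound that is not strict because undetected bladders enter the mean. With scanner as a block its change was 3.33, adjusted p = 0.0708, and among arrays of the second scanner alone it was 4.44, adjusted p = 0.00357. Klk7, the chymotrypsin-like desquamation protease, was above background in 10 of 19 BBN bladders and 0 of 3 normal ones, and no fold is given. Its log2 change of 3.43 ± 1.22 (SE), adjusted p = 0.0327 did not hold with scanner as a block (1.74, adjusted p = 0.286) or without any 1 of the normal bladders.

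Klk5, the trypsin-like enzyme at the head of the desquamation cascade, was detected in 6 BBN bladders and no normal one, and its log2 change of 2.75 ± 1.22 (SE), adjusted p = 0.0776 did not pass. Klk6 showed 3.29 ± 1.35 (SE), adjusted p = 0.0587 and likewise did not pass. Klk8, known from skin and hippocampus, was already expressed in normal bladders at -0.47, 0.25 and -0.32 and ran from -2.33 to 3.87 with a median of 0.87 with BBN, so the groups overlapped (log2 change 1.61 ± 0.92 (SE), adjusted p = 0.167). Klk4, the enamel kallikrein, changed by 0.56 ± 0.53 (SE), adjusted p = 0.41.

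The kallikreins lie in 1 block on chromosome 7, and Klk1 with its mouse-specific Klk1b copies forms the other end of it. Of 8 measured Klk1 and Klk1b genes, Klk1b21 and Klk1b24 rose and the other 6 did not pass. Over all tested genes 23.7% were called higher. Klk1b21 went from -4.58, -4.3 and -4.33 to a range from -3.34 to -1.38 with a median of -2.35, above normal in all 19 BBN bladders (log2 change 2.05 ± 0.37 (SE), adjusted p = 0.000396). Klk1, tissue kallikrein, which releases kinins, was detected in 3 BBN bladders and no normal one (log2 change 1.52 ± 0.74 (SE), adjusted p = 0.106). Klk1b genes are near-identical copies that a probe may not tell apart, so which copy was read is uncertain. The plot along the chromosomes shows filled bars crowded from Klk14 to Klk9 and sparse ones at the Klk1 end.

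**Figure D2:**
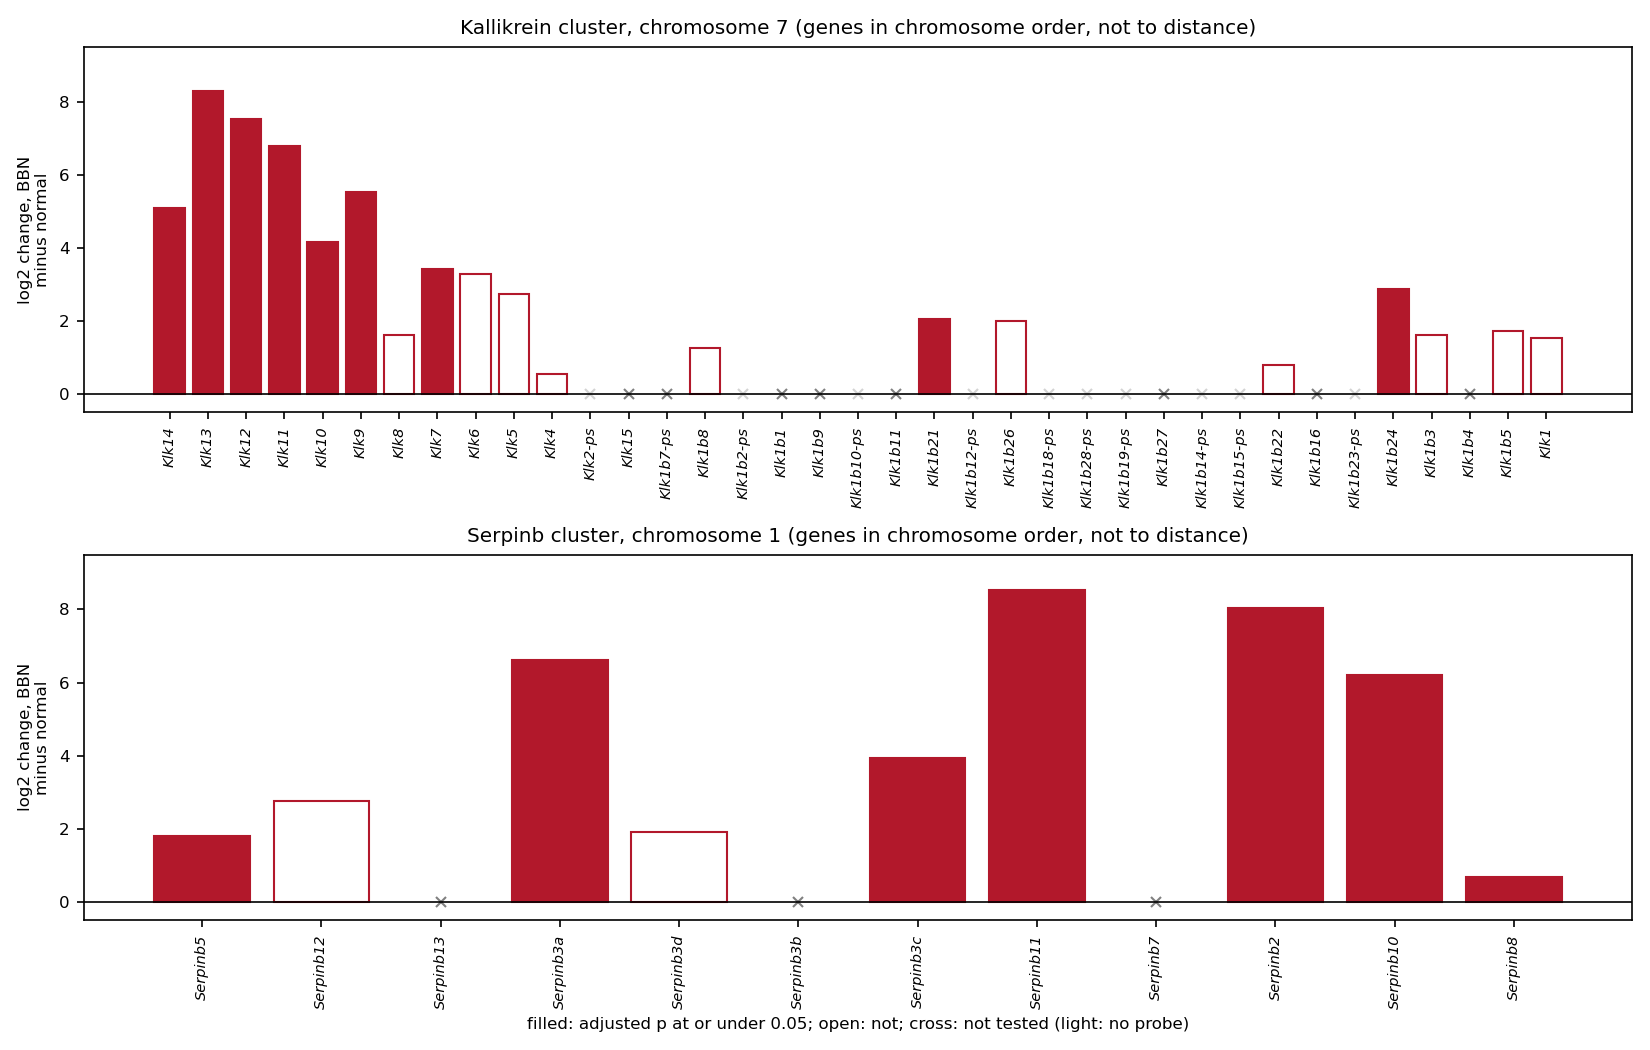
Log2 change (BBN groups minus normal, y axis) of the genes of the kallikrein block on chromosome 7 and the Serpinb block on chromosome 1, in chromosome order on the x axis; filled bars passed the test, open bars did not, crosses were not tested. In the Klk block 9 of 19 tested genes were higher, and in the Serpinb block 7 of 9.

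Clade B serpins of squamous epithelium rose beside the kallikreins. Of 7 measured, 5 rose (Serpinb2, Serpinb3a, Serpinb3c, Serpinb5 and Serpinb11), where 23.7% of all tested genes were called higher. Serpinb12 and Serpinb3d did not pass, 0 fell, and the median log2 change was 3.94. Serpinb2, Serpinb3a, Serpinb3d, Serpinb11 and Serpinb12 were above background on no normal array, so a fall could not be read for them. Serpinb11 read -7.51, -7.23 and -7.75 in normal bladders and from -1.34 to 2.96 with a median of 0.75 with BBN, at least 81.7-fold higher in group mean (log2 change 8.52 ± 0.67 (SE), adjusted p = 2.09e-07). Serpinb2, PAI-2, an inhibitor of urokinase that keratinocytes and macrophages make, went from -7.62, -7.34 and -7.87 to a range from -1.51 to 2.19 with a median of 0.19, at least 55.1-fold (log2 change 8.04 ± 0.66 (SE), adjusted p = 2.85e-07). Both genes were above background in all 19 BBN bladders and in no normal one, and their BBN levels spanned a narrower range than those of Klk9 to Klk14. Their promoters are those printed above with AP-1 matches.

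Serpinb3a, a relative of the human squamous cell carcinoma antigens, spread much more widely. It read -7.48, -7.19 and -7.7 in normal bladders and from -7.86 to 3.47 with a median of -1.99 with BBN, at least 20-fold higher on average (log2 change 6.61 ± 1.44 (SE), adjusted p = 0.00174). It was detected in 17 of 19 BBN bladders, so this bound is not strict. The lowest BBN bladder was again Krt5-Cre R172H replicate 3, at -7.86, no brighter than normal. Serpinb3c changed by 3.94 ± 1.04 (SE), adjusted p = 0.00648, and by 2.2, adjusted p = 0.0704 with scanner as a block. Probes of the Serpinb3 copies may share signal. Serpinb5, maspin, a non-inhibitory serpin of basal epithelial cells, was bright in every sample, 3.46, 3.54 and 3.05 in normal bladders and from 3.66 to 6.21 with a median of 5.21 with BBN. It rose by 1.79 ± 0.41 (SE), adjusted p = 0.00245 on the log2 scale, and all 19 BBN bladders lay above the normal ones.

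The clade B serpins of leukocytes and of most cells moved less. Of 13 measured, Serpinb10, Serpinb1a, Serpinb1c and Serpinb8 rose and 9 did not pass, with a median log2 change of 0.94. Over all tested genes 23.7% were called higher. Serpinb10, which haematopoietic cells make, was undetected in normal bladders (-5.69, -7.27 and -5.97) and ran from -3.33 to 1.85 with a median of 0.15 with BBN, at least 41.3-fold higher (log2 change 6.21 ± 0.81 (SE), adjusted p = 2.07e-05). Serpinb1a, an inhibitor of neutrophil elastase and cathepsin G, read 1.5, 1.49 and 1.23 in normal and from -0.2 to 4.65 with a median of 3.52 in BBN bladders, where only Krt5-Cre R172H replicate 3 lay below normal. Its log2 change of 2.13 ± 0.7 (SE), adjusted p = 0.0219 did not hold with scanner as a block (1.33, adjusted p = 0.18) or among arrays of the second scanner alone (1.71, adjusted p = 0.094). Serpinb1c, its near copy, went from -2.45, -2.41 and -2.64 to a range from -3.43 to 1.27 with a median of 0.08 (log2 change 2.6 ± 0.65 (SE), adjusted p = 0.00461), again with that bladder alone below normal. Serpinb9, the granzyme B inhibitor, went from 0.03, 0.14 and -0.24 to a range from -0.17 to 2.06 with a median of 0.6, higher in 18 of 19 BBN bladders without passing (0.9 ± 0.4 (SE), adjusted p = 0.0784). Serpinb6a, an abundant intracellular inhibitor, read 5.25, 5.51 and 5.06 in normal bladders and from 4.6 to 6.02 with a median of 5.37 with BBN, with overlapping groups (log2 change 0.05 ± 0.26 (SE), adjusted p = 0.887). Serpinb8 passed narrowly with 0.68 ± 0.26 (SE), adjusted p = 0.0455, and its second probe gave 2.28. Its call was lost in 19 of 37 settings, among them scanner as a block (0.49, adjusted p = 0.221) and leaving out any 1 normal bladder. Of 9 tested neutrophil markers 6 rose beside these genes, and Csf3r, Ngp and Camp did not pass. The array mean of the 9 ran from -5.04 to -4.38 in normal and from -1.33 to 1.83 in BBN bladders. The part of these markers in the leukocyte serpins was not tested, and in bulk RNA more cells of a type and more RNA per cell cannot be told apart.

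Clade A holds serpins that the liver secretes into plasma. Of 18 measured, 8 rose (Serpina1a, Serpina1b, Serpina1c, Serpina1e, Serpina1f, Serpina3i, Serpina9 and Serpina11), 0 fell and 10 did not pass, with a median of 1.83. Over all tested genes 42.7% were called, 23.7% higher. Serpina1a, Serpina1c, Serpina1d, Serpina1e and Serpina6 were above background on no normal array, so a fall could not be read for them. The calls of Serpina1f (0.82, adjusted p = 0.106) and Serpina3i (1.49, adjusted p = 0.151) were lost with scanner as a block and without normal replicate 2 or 3, and that of Serpina3i also without normal replicate 1 and among arrays of the second scanner (1.69, adjusted p = 0.0597). Serpina1a, an alpha-1-antitrypsin, the main plasma inhibitor of neutrophil elastase, read -7.39, -7.32 and -7.82 in normal bladders, not well above background, and from -7.32 to 2.36 with a median of -1.51 with BBN. Its mean was at least 17.4-fold higher (log2 change 6.09 ± 1.33 (SE), adjusted p = 0.00176), but Upk2-Cre replicate 1 stayed at -7.32, while Krt5-Cre R270H replicate 3 reached 2.36. Serpina1a was detected in 16 of 19 BBN bladders, so this bound is not strict. Serpina1c and Serpina1e gave log2 changes of 5.89 ± 1.29 and 5.75 ± 1.28 (SE), at least 16.4-fold and 13.7-fold higher. The second probes of Serpina1a and Serpina1e gave smaller log2 changes, 4.24 and 3.55, and the bounds apply to the brightest probe alone. Over the 19 BBN bladders Serpina1a, Serpina1c and Serpina1e ranked the samples almost alike, with a median Spearman correlation of 0.991. Since they are near-identical copies they may report 1 signal. Serpina1b, detected in every normal bladder at -3.9, -3.68 and -4.31, ran from -2.3 to 0.87 with a median of -0.95 with BBN (log2 change 3.02 ± 0.54 (SE), adjusted p = 0.000402). Serpina9 rose from -4.96, -5.7 and -5.44 to a range from -4.29 to 0.02 with a median of -2.38 (log2 change 2.86 ± 0.59 (SE), adjusted p = 0.00114). Serpina11, a little-studied liver serpin, stayed dim in all samples, -4.8, -4.84 and -4.81 in normal bladders and from -3.92 to -2.0 with a median of -3.06 with BBN, yet its groups did not overlap (log2 change 1.69 ± 0.28 (SE), adjusted p = 0.000222). Serpina6, corticosteroid-binding globulin, was detected in 8 BBN bladders and no normal one and did not pass (2.61 ± 1.14 (SE), adjusted p = 0.0746).

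Transcripts of other plasma proteins varied with Serpina1a. Its Spearman correlation with the mean of 6 hepatocyte markers over the 19 BBN bladders was 0.93, given as a description of samples that share slides and scanners. That mean ran from -6.68 to -5.92 in normal and from -6.97 to -0.53 in BBN bladders. None of the 6 was above background on every BBN array. Alb and Ahsg were detected in 14 of 19 BBN bladders each, Fgb in 9, Apoh in 6 and Apoa1 in 2, and none of these in a normal one. Ttr went the other way, detected in all 3 normal bladders and in 5 BBN bladders (log2 change -4.07, adjusted p = 0.0081). Alb, Ahsg and Fgb passed as higher. Their part in the Serpina1 result was not tested.

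Serpina3n, an acute-phase inhibitor related to alpha-1-antichymotrypsin, read 2.0, 1.72 and 1.87 in normal bladders and from -3.74 to 3.01 with a median of -0.01 with BBN. It lay below normal in 17 of 19 BBN bladders and above it in 2, Krt5-Cre replicate 1 and Krt5-Cre R270H replicate 2, and the log2 change of -1.91 ± 0.97 (SE), adjusted p = 0.121 did not pass. Its level ranked the BBN bladders much as the mean of 7 fibroblast markers did (Spearman 0.89). Serpina3f, a relative encoded nearby, fell into separate ranges: 6 BBN bladders read from 2.32 to 3.99, 3 of them Krt5-Cre R172H, 2 Trp53 het and 1 Krt5-Cre R270H. Upk2-Cre R270H replicate 2 read 0.28, Upk2-Cre replicate 1 read -1.13, and the rest lay between -4.82 and -2.32, nearer the normal -4.28, -4.03 and -5.05. The overall change of 3.1 ± 1.44 (SE), adjusted p = 0.0927 did not pass, and the Serpina3 copies may share probe signal. Serpina3f was singled out after its values were seen.

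Among the serpins of coagulation and fibrinolysis, Serpine2 and Serpind1 rose, Serping1 fell, and Serpinc1 and Serpinf2 did not pass. Serpine2, protease nexin-1, which blocks thrombin and urokinase at the cell surface, went from 1.73, 2.6 and 1.83 in normal bladders to a range from 2.29 to 4.95 with a median of 3.79 (log2 change 1.66 ± 0.47 (SE), adjusted p = 0.0101), above normal in 17 of 19. That call was lost with the labelled sex as a covariate (adjusted p = 0.0807) and without normal replicate 1 or 3 (adjusted p up to 0.0625). Serping1, the C1 inhibitor of complement and plasma kallikrein, stood at 5.04, 4.81 and 4.83 in normal bladders and from 0.82 to 5.17 with a median of 2.3 with BBN. It fell by 2.45 ± 0.65 (SE), adjusted p = 0.00634 on the log2 scale, and 18 of 19 BBN bladders lay below all 3 normal ones, the exception being Krt5-Cre R270H replicate 2 at 5.17. Serpind1, heparin cofactor II, which blocks thrombin, was detected in 5 BBN bladders and no normal one. Its log2 change was 2.49 ± 0.59 (SE), adjusted p = 0.00319, a call lost under quantile normalization. With so few bladders detected, no fold is given. Serpinc1, antithrombin, read -4.14, -4.53 and -3.99 in normal bladders and from -5.94 to -1.14 with a median of -4.53 with BBN (log2 change 0.06 ± 0.79 (SE), adjusted p = 0.96). Serpinf2, alpha-2-antiplasmin, gave 1.68 ± 0.74 (SE), adjusted p = 0.0775.

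The stromal and neuronal serpins, Serpinf1, Serpinh1 and Serpini1, were all called lower, but only the Serpini1 call held under every alternative. Serpinf1, PEDF, an antiangiogenic non-inhibitory serpin, went from 3.25, 3.08 and 2.84 to a range from -0.33 to 4.06 with a median of 2.06 (log2 change -1.36 ± 0.49 (SE), adjusted p = 0.0343), while its other probes gave -3.1 and -2.24. Serpinh1, HSP47, the collagen chaperone, went from 4.51, 3.98 and 3.66 to a range from 1.86 to 3.93 with a median of 2.94 (log2 change -1.04 ± 0.35 (SE), adjusted p = 0.0248). Neither call held with scanner as a block (-0.96, adjusted p = 0.201 for Serpinf1 and -0.69, adjusted p = 0.181 for Serpinh1). The Serpinf1 call was also lost without any 1 of the normal bladders, though it held among arrays of the second scanner alone (-1.32, adjusted p = 0.00717). That of Serpinh1 was lost among those arrays (-0.87, adjusted p = 0.0864) and without normal replicate 1 or 2. Serpini1, neuroserpin, an inhibitor of tissue plasminogen activator, read -1.97, -1.49 and -1.79 in normal bladders and from -7.08 to -3.01 with a median of -4.8 with BBN, below normal in all 19 (log2 change -2.95 ± 0.57 (SE), adjusted p = 0.000701), with -1.15 from its second probe. Fibroblast markers (7 genes, collagens among them) were lower too, 5 of 7 passing and 0 higher, with an array mean from 3.7 to 4.32 in normal and from -0.11 to 4.15 in BBN bladders. Across BBN bladders their mean had Spearman correlations of 0.67 with Serpinf1, 0.58 with Serpinh1 and 0.55 with Serping1, and the part of fibroblast content in the fall of these serpins was not tested. Smooth muscle markers went the other way, from 1.03 to 2.28 in normal and from 1.84 to 6.5 in BBN bladders.

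**Figure D3:**
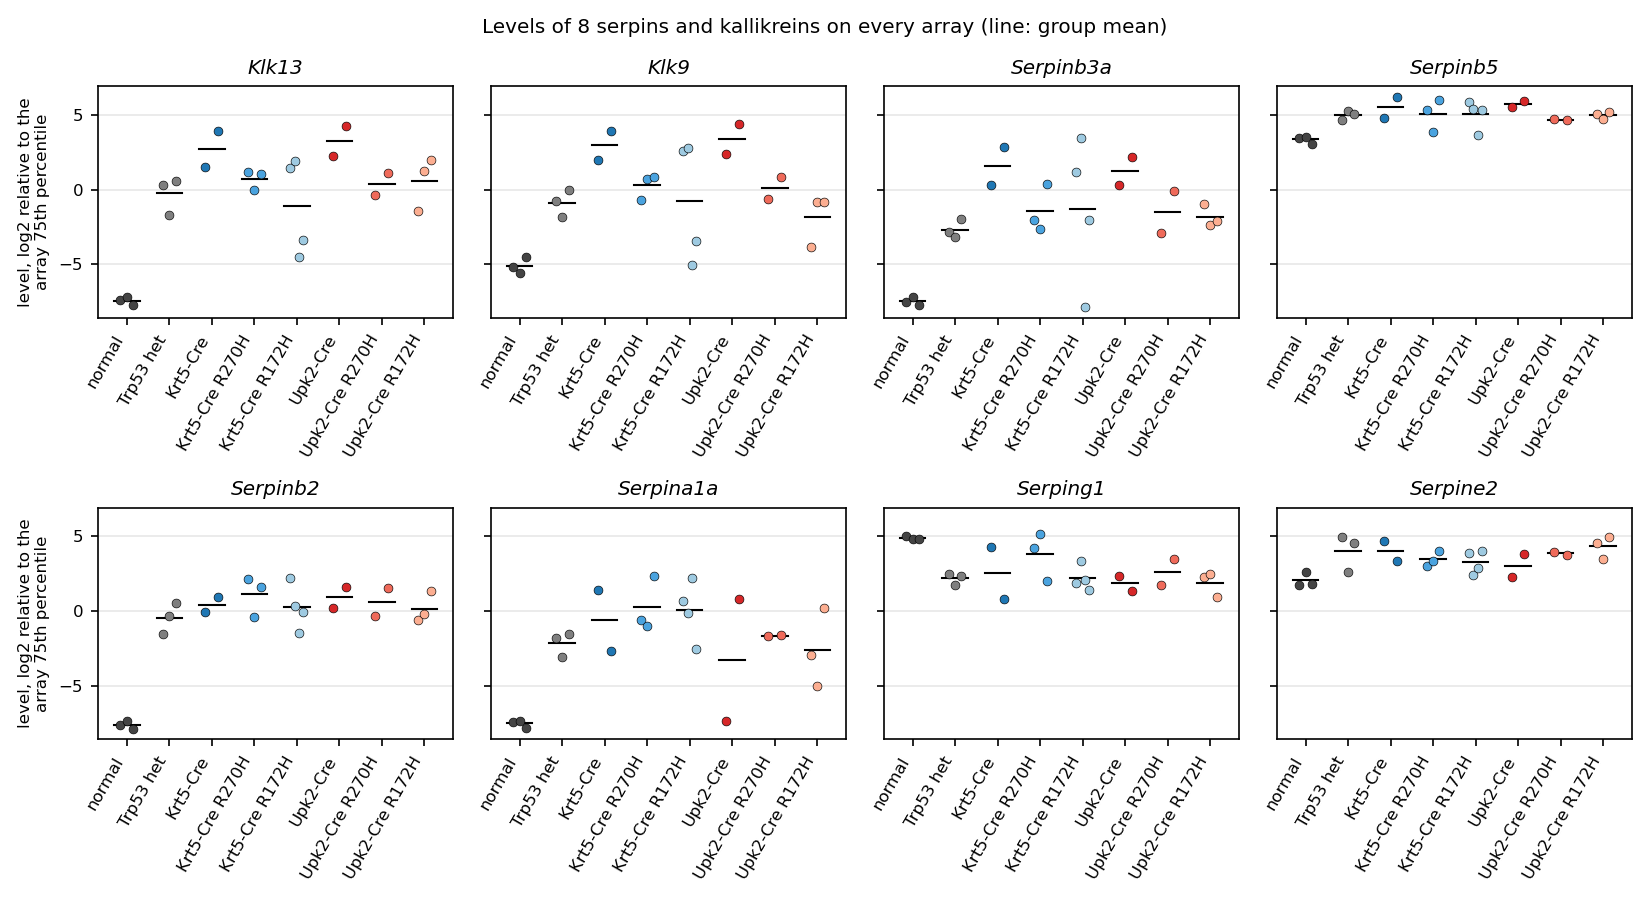
Levels (log2 relative to the array 75th percentile, y axis) of 8 serpins and kallikreins in the 8 groups on the x axis, with a point per array and a line at the group mean. Klk13, Serpinb3a and Klk9 spread widely among BBN bladders, Serpinb2 and Serpinb5 sit above the normal arrays throughout, and Serping1 sits below them on 18 of 19.

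The partners of these genes were followed from fixed lists, to be read against the 23.7% of all tested genes called higher and 19% lower. Of 4 desmosomal and cornified substrates of kallikreins, Dsg1b, Dsc1 and Cdsn rose, led by Cdsn, corneodesmosin (at least 83.7-fold higher, adjusted p = 0.000172). All 4, Dsg1a included, were above background on no normal array, so a fall could not be read for them. Of 12 other epithelial inhibitors, 7 rose and 2 fell. Spink5, LEKTI, the inhibitor of the epidermal kallikreins, was detected in all 19 BBN bladders and no normal one (at least 167-fold higher, adjusted p = 6.73e-06). Stfa1, a stefin that inhibits cysteine cathepsins, was likewise undetected in normal bladders (at least 1527-fold higher, adjusted p = 3.95e-06), and Slpi, a secreted inhibitor of neutrophil elastase, rose (log2 change 6.19, adjusted p = 0.000105), whereas Spint1, an inhibitor of matriptase and hepsin, fell (log2 change -0.69, adjusted p = 0.0227). Of 12 membrane serine proteases 6 rose and 3 fell. Those of squamous epithelium led the rises, Tmprss11e (log2 change 5.55, adjusted p = 2.91e-07) and Tmprss11b (at least 26.7-fold higher, adjusted p = 1.85e-07), and Tmprss2, a luminal protease, fell (log2 change -2.41, adjusted p = 0.00145).

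Of 14 plasminogen and coagulation genes, 4 rose and 1 fell, 5 called where 42.7% of all tested genes were, a share not above the background. F10, the precursor of factor Xa, was detected in 18 BBN bladders and no normal one (at least 16.9-fold higher, adjusted p = 1.61e-06). A2m, a broad plasma protease trap, was detected in 3 BBN bladders and no normal one, and although the fit called it (adjusted p = 0.0174) no fold is given. Klkb1, plasma prekallikrein, was detected in 5 BBN bladders and no normal one (adjusted p = 0.0354), again without a fold. Plaur, the urokinase receptor, rose (log2 change 1.07, adjusted p = 0.0277), while urokinase itself, Plau, a target of Serpinb2, gave log2 change -0.8, adjusted p = 0.164. Of 6 cysteine cathepsins 3 rose and 2 fell, with Ctsc, which activates neutrophil serine proteases, among the former (log2 change 1.21, adjusted p = 0.0013) and Ctsk, a collagen-degrading cathepsin, the largest fall in that list (log2 change -2.9, adjusted p = 0.000392). Of 8 leukocyte and mast cell proteases 2 were called. Tpsb2, a mast cell tryptase, rose (log2 change 2.07, adjusted p = 0.00264). Ctsg, cathepsin G, was detected in 2 BBN bladders and no normal one, and its call (adjusted p = 0.0168) compares signals near background, with no fold. Elane, neutrophil elastase, gave log2 change 0.85, adjusted p = 0.143.

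The effect of the Trp53 mutation was asked within BBN bladders, and 0 of the 66 serpins and kallikreins passed in any of 6 contrasts or in the F-test over the 7 BBN groups (limma). Background was near 0 as well: 0.0115% of all tested genes were called for Krt5-driven mutants against Krt5-Cre, 0.00575% for Upk2-driven mutants against Upk2-Cre, 0.00575% for Krt5-driven against Upk2-driven mutants and 0 genes elsewhere. At an unadjusted p under 0.05 stood 3 members for Krt5-driven mutants against Krt5-Cre, where 4.8% of all tested genes did. It was 10 members for Upk2-driven mutants against Upk2-Cre (6.29% of all genes), 4 between the drivers' mutants (5.3%) and 3 for R270H against R172H (9.81%). Where Trp53 het was set against both Cre controls it was 14 (4.83%), and for the difference between drivers 0 (3.32%). The mutant contrasts of a driver share their control samples with other contrasts, and the 2 controls hold 2 arrays each, so a missing call does not show that levels were alike.

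The 3 members of smallest unadjusted p in each contrast are given with their values. Among Upk2-driven mutants against Upk2-Cre these were Serpinf1 (1.79 ± 0.66 (SE), adjusted p = 0.777), Serpina9 (-2.13 ± 0.8 (SE), adjusted p = 0.777) and Klk9. Klk9 read 2.38 and 4.35 in the Upk2-Cre bladders, -0.64 and 0.86 in Upk2-Cre R270H and -3.8, -0.8 and -0.82 in Upk2-Cre R172H, without overlap (log2 difference -4.21 ± 1.65 (SE), adjusted p = 0.777). In the Krt5 arm it was 1.98 and 3.91 in Krt5-Cre, -0.71, 0.67 and 0.86 in Krt5-Cre R270H and 2.59, 2.75, -5.05 and -3.43 in Krt5-Cre R172H, where the ranges overlapped (-3.2 ± 1.58 (SE), adjusted p = 1). Klk10 and Klk8 were lower in Trp53 het than in the Cre controls by unadjusted p only. Klk10 stood at -0.84, -2.28 and -1.43 in Trp53 het against -0.16 and 1.89 in Krt5-Cre and 1.14 and 2.6 in Upk2-Cre (log2 difference -2.88 ± 0.92 (SE), adjusted p = 0.763). Klk8 stood at 0.3, -0.38 and -0.18 against 2.71 and 3.87 and 2.67 and 3.47 (-3.27 ± 1.13 (SE), adjusted p = 0.773). Serpinb8 differed in the same contrast by -0.97 ± 0.32 (SE), adjusted p = 0.763. The Cre controls also had the highest squamous marker means, from 4.72 to 6.45 in Krt5-Cre and from 4.98 to 6.49 in Upk2-Cre, against from 3.76 to 4.33 in Trp53 het, and the part of these markers in the kallikrein levels by group was not tested.

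Serpina3b, an antichymotrypsin relative, gave the smallest unadjusted p between Krt5-driven mutants and Krt5-Cre. It read -3.15 and -4.02 in Krt5-Cre, -2.66, -1.12 and -2.19 in Krt5-Cre R270H and 1.05, -0.22, -0.02 and -2.8 in Krt5-Cre R172H, all mutants above both controls (log2 difference 2.34 ± 0.72 (SE), adjusted p = 0.858). In the Upk2 arm the difference was 0.24 ± 0.75 (SE), adjusted p = 0.981, and the difference between the drivers was 2.11 ± 1.04 (SE), adjusted p = 0.998. Serpina3c and Serpine2 followed in that difference, with -2.47 ± 1.24 (SE), adjusted p = 0.998 and -1.67 ± 0.88 (SE), adjusted p = 0.998. Krt5-driven exceeded Upk2-driven mutants in Serpina3b by 1.58 ± 0.53 (SE), adjusted p = 0.886. Serpina3h, another antichymotrypsin relative, had a log2 difference of 1.24 ± 0.5 (SE), adjusted p = 0.95 between Krt5-driven mutants and Krt5-Cre. In the F-test over the BBN groups Serpina3b, Serpinf1 and Serpina3h had the smallest p, with adjusted p = 0.666, 0.752 and 0.752. Serpina9, a serpin of germinal centre B cells, stood at -1.88 ± 0.34 (SD, n = 3) and -2.02 ± 0.99 (SD, n = 4) in the Krt5-driven mutants against -3.64 ± 0.11 (SD, n = 2) and -4.03 ± 0.43 (SD, n = 3) in the Upk2-driven ones (log2 difference 1.88 ± 0.56 (SE), adjusted p = 0.886). Serpina1d differed between the same mutants by 2.52 ± 1.09 (SE), adjusted p = 0.886. Serpinf1 differed between Krt5-driven mutants and Krt5-Cre by 1.51 ± 0.63 (SE), adjusted p = 0.982. Between the alleles the smallest unadjusted p belonged to Serpinb3d (2.12 ± 0.82 (SE), adjusted p = 0.386), Serpina3c (1.58 ± 0.63 (SE), adjusted p = 0.408) and Serpina3m (1.51 ± 0.67 (SE), adjusted p = 0.474), with positive differences for R270H. All 5 R270H arrays were read on the first scanner and 5 of 7 R172H arrays on the second, so allele and scanner largely coincide. With scanner as a block Serpinb3d, above background on 3 arrays, turned to -0.12, adjusted p = 0.946, while Serpina3c gave 2.1, adjusted p = 0.222 and Serpina3m 2.52, adjusted p = 0.143. None of these passed the test over all genes.

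Bladders within the BBN groups differed in how much squamous keratinocyte signal they held, and the kallikreins followed it. The measure was the mean level of 14 markers of squamous keratinocytes (Krt1, Krt6a, Lor, Dsg3 and others, no serpin or kallikrein among them). It ran from -3.05 to -2.78 in normal bladders and from 0.73 to 6.49 in BBN bladders, lowest in Krt5-Cre R172H replicate 3. Of the 14, 12 rose with BBN and 1, Ivl, fell, and their part in the rise of kallikreins with BBN was not tested. Over the 19 BBN arrays the slope on this mean passed for 17 of the 66 members, all higher with more squamous signal, where 3.37% of all tested genes passed and 3.02% in that direction (limma, adjusted p at or under 0.05). The 17 were 10 of the 11 epidermal type kallikreins, Klk5 to Klk14, with Serpinb3a, Serpinb3c, Serpinb5, Serpinb11, Serpinb12, Serpinb1a and Serpinb1c. Klk4 did not pass, nor did Serpinb2, Serpinb3d, the other 11 clade B serpins or any of the 8 Klk1 and Klk1b genes, the 18 clade A serpins or the serpins of coagulation, matrix and nerve.

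Klk12 rose by 1.93 ± 0.15 (SE), adjusted p = 4.61e-07 on the log2 scale for each unit of the marker mean, which is itself in log2. Klk14 followed with 1.83 ± 0.18 (SE), adjusted p = 2.48e-06 and Serpinb3a with 1.83 ± 0.17 (SE), adjusted p = 1.63e-06. Klk8, which had not passed against normal, gave 1.21 ± 0.14 (SE), adjusted p = 1.28e-05. Serpinb5 had a shallow slope of 0.38 ± 0.08 (SE), adjusted p = 0.00859. Serpinb2, in contrast to its neighbour Serpinb3a, gave 0.51 ± 0.15 (SE), adjusted p = 0.0771 and did not pass, and Serpina1a gave -0.14 ± 0.41 (SE), adjusted p = 0.913; whether these slopes differ from that of Serpinb3a was not tested. Without the 2 arrays farthest from the median, Krt5-Cre R172H replicate 3 and Upk2-Cre replicate 2, 16 members and 231 of 17404 tested genes passed. Klk12 then gave 1.9, adjusted p = 0.00051, while the slope of Serpinb5 no longer passed (0.37, adjusted p = 0.218). Within the first scanner alone 11 members passed (132 of 17404 tested genes) and within the second alone 5 (101 of 17404). The slope of Klk12 was 1.8, adjusted p = 0.00517 within the first and 2.21, adjusted p = 0.0116 within the second. The slope of Klk13 was 1.35, adjusted p = 0.0344 within the first scanner and 1.68, adjusted p = 0.0963 within the second. With group means as covariates, which leaves only differences inside groups, 14 members and 372 of 17404 tested genes passed. Klk12 then gave 1.85, adjusted p = 0.000202.

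**Figure D4:**
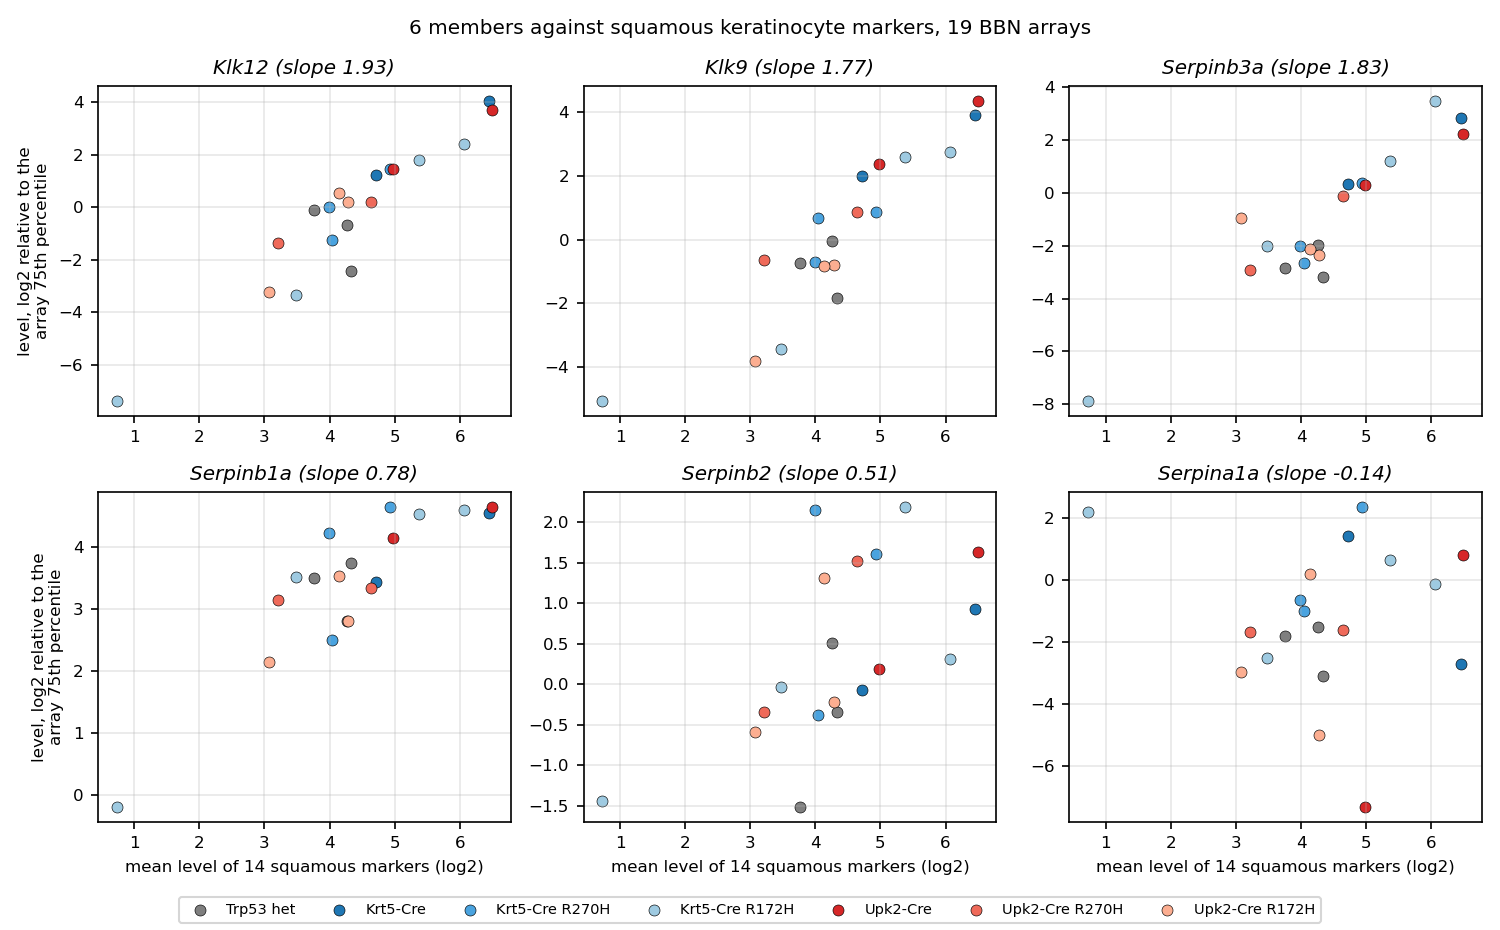
Levels (log2 relative to the array 75th percentile, y axis) of 6 members against the mean level of 14 squamous keratinocyte markers (x axis) on the 19 BBN arrays, coloured by group. Klk12, Klk9 and Serpinb3a climb along the axis within and between groups, Serpinb2 climbs weakly and Serpina1a does not.

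Among the members the kallikreins varied together most closely. The 11 epidermal type kallikreins had a median Spearman correlation of 0.846 among themselves over the 19 BBN arrays (55 pairs), the 7 epithelial clade B serpins one of 0.651 (21 pairs), and kallikreins with these serpins one of 0.649 (77 pairs). Over all 2145 pairs of members the median was 0.153, and between the 3 Serpina1 genes and the kallikreins it was 0.179. These are descriptions over arrays that share groups, slides and scanners. Of the 9 tested neutrophil markers, S100a8 and S100a9 themselves passed the limma slope on squamous signal, and the others did not. Their slopes were 0.97, adjusted p = 0.0267 and 1.02, adjusted p = 0.00113. A slope on the mean of the 9 neutrophil markers passed for 0 members in limma, where 0.0287% of all tested genes passed. At an unadjusted p under 0.05 stood 22 members, where 14% of all tested genes did. After normexp background correction 38 passed, where 27.6% of all tested genes did, and 1 passed in the deposited table, where 0.416% did. Klk1b22, Serpinb9e and Serpinb9f had the smallest p, with slopes of 1.38 ± 0.32 (SE), adjusted p = 0.162, 1.19 ± 0.28 (SE), adjusted p = 0.162 and 1.18 ± 0.28 (SE), adjusted p = 0.162.

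Promoter entries were at hand for 58 of the 66 members. The AP-1 motif TGANTCA lay in 11 of their 67 promoters (16.4%), in 7.81% of all 32851 promoters and in 6.17% of the promoters of tested genes. Counted by gene, it lay in 8 of 26 members higher with BBN (30.8%), against 7.3% of tested genes, or in 7 of 25 with Serpina1a and Serpina1c as 1. The 8 were Serpina1a, Serpina1b, Serpina1c, Serpinb2, Serpinb5, Serpinb8, Serpinb10 and Serpinb11. They all lie in the Serpina block on chromosome 12 or the Serpinb block on chromosome 1, so they are not 8 independent observations. The share over all genes higher with BBN is not given here. Counted by promoter, it lay in 3 of the 20 promoters (15%) of 16 members with a squamous slope, and in no kallikrein promoter. TATAAA was found in 17.9% of the members' promoters and 13.6% of all. A match is a run of letters in this window and says nothing of a factor's binding.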

How the data were processed

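Total RNA of 22 mouse bladder samples was hybridised in 1 colour (Cy3) to Agilent arrays. Per the file headers, the intensities come from Agilent Feature Extraction 11.0.1.1; version 9.1 and limma are named per the submitters' processing notes. The deposited normalized table holds log2 values, used as an alternative only; its scaling is not given in the sources used here.

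The log2 processed signal minus the array's 75th percentile was taken, outlier spots were left out, and the brightest probe stood for a gene. Symbols came from RefSeq accessions (GRCm38.p6), which named 32994 of 56605 probes. Genes above background on at least 2 arrays (17404) were fitted with limma 3.58.1 in R 4.3.3 as 8 group means over 22 arrays, with Benjamini-Hochberg adjustment at 0.05, and the script was tested on simulated data. Python 3.11.15 did the rest. Sides of a contrast weight groups alike; ± SE comes from the fit. The number of arrays limits precision. A bound ("at least N-fold") compares the BBN mean with the higher of the dimmest detected signal and the gene's own signal on each normal array. It is for the brightest probe, and is strict only where all BBN bladders were detected.

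The members and gene lists were chosen with earlier results of these data known. The counts cover all 66 members, but 1 is not reported here by itself. Genes named were a set of well-known members, the 12 highest and the lowest called with BBN, the 3 of smallest p in each other comparison, and up to 3 genes of each partner list; others are named within counts. Replicate numbers did not pair samples (20 of 66 same-numbered pairs correlated above 0.1, range -0.478 to 0.556). Alternatives were background correction, normalization, filter, probe rule, slide, scanner, replicate and sex terms, array weights, averaging shared animal codes and leaving out each array; scanner subsets were added after the data were seen.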

Additional observations from a re-analysis of the deposited data

How the results depend on the processing

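Of the 32 calls with BBN, 21 held under every alternative that could test the gene, 23 with scanner as a block and 29 among arrays of the second scanner. The count of members called was 16 of 33 in the deposited table, where 42.8% of all tested genes were called. It was 11 of 17 with detection required on all arrays (41.3% of all tested genes) and 60 with array weights (75.3%). With scanner as a block it was 23 and with slide as a random block 26, and these called 29.8% each. When each array in turn was left out it was 25 to 43. With the replicate number as a block it was 43, and the numbers do not pair these samples. The contrasts among BBN groups gave 0 under every alternative run. Squamous slopes numbered 7 of 33 in the deposited table (1.97% of all tested genes). They numbered 11 and 5 within the first and second scanner, where 132 and 101 of 17404 tested genes passed. Neutrophil slopes numbered 38 with normexp background correction (27.6% of all tested genes) and 1 in the deposited table (0.416%). Fits within scanners held fewer arrays, and the stricter filters held fewer genes. What caused these changes in count was not tested. Dim kallikreins and clade A serpins lie near the background of the first scanner, where signal limits what can be ordered. No named gene reversed direction where it was called.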
